A study of Mus musculus with 14 samples.

Results

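Mpo, Elane, Prtn3, Ctsg and Ms4a3 were examined as a group of 5 genes that mark myeloid precursors at the stage when the primary, or azurophil, granules are made. The genes were chosen by symbol as known promyelocyte genes, by a rule that uses no measured value, though with earlier results of these data known. All 5 were present in every table, among 19465 features in the tables of the C1qa cross and 32589 in those of the purchased mice. Levels are given as CPM, the unique molecular identifiers (UMIs) of a gene as a share of all UMIs of the section, on the scale where 280.1 CPM is 0.0280%, over spots that lie on tissue and hold at least 1000 detected genes.

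Neutrophils fill their granules in waves as they mature. Primary granules are made first, in promyelocytes, and carry myeloperoxidase and a family of serine proteases, and their mRNAs are lost again before the specific and gelatinase granules of later stages are made. Mpo encodes myeloperoxidase, which turns hydrogen peroxide and chloride into hypochlorous acid. Elane (neutrophil elastase), Prtn3 (proteinase 3) and Ctsg (cathepsin G) encode serine proteases that are stored active in the granule. Ms4a3 encodes a membrane protein of the MS4A family that is characteristic of granulocyte and monocyte progenitors. Fetal liver, bone marrow and, in mice, the red pulp of the spleen are sites where such precursors are found.

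The series holds 14 tissue sections of Mus musculus on Visium slides, where each spot takes up RNA from several cells through a probe panel. Wild-type C57BL/6 mice from a vendor gave 6 sections, 1 per group and without replicates: E13.5 fetal liver, E14.5 fetal liver, leg bone at postnatal day 8 (P8), leg bone marrow at 89 weeks, leg bone of an adult of 6 months kept in 0.5 M EDTA for 5 days, and the spleen of an adult whose age the labels give only as adult. The study's own text states an age in months for that spleen, but its methods and its reporting summary differ. By its methods, the marrow of its old mouse was separated from bone after the frozen femur had been cut. That step is not described for P8 femurs. A cross of C1qa heterozygotes gave 8 sections, 2 per group: wild-type and C1qa knockout E14.5 fetal livers, numbered 2 and 4 after the dam so that equal numbers are littermates, and wild-type and C1qa knockout spleens, numbered 1 and 2, at 3 months by the labels, though the study's supplement gives a younger age. C1qa, which encodes a chain of complement C1q and is knocked out in all cells of these mice, had 1, 1, 2 and 1 UMIs in the 4 knockout sections, against 25.8 to 269 CPM in the 4 wild-type sections of the cross.

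Kept spots numbered 491 to 2320 and UMIs 4225805 to 56182915 per section, apart from the EDTA section with 15 spots and 37167 UMIs. Several sections held more than the named tissue. Hepatocyte genes passed 0.5% of UMIs in all spots of the purchased livers, but in 239 of 806 spots of wild-type liver 4 and 366 of 589 of knockout liver 4. Acinar pancreas genes took 0.398% and 2.53% of UMIs in knockout spleens 1 and 2, against 0.00625% and 0.0939% in the wild-type spleens. In the P8 section, where bone and cartilage genes took 11.2% and 3.20% of UMIs, late neutrophil genes passed 0.5% of UMIs in 440 of 1085 spots. Libraries of purchased and crossed mice were made and counted separately, and no test was made between them.

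The 5 genes lie at 4 places in the mouse genome (GRCm38, the build also named mm10 in the submitters' notes). Prtn3 (ENSMUSG00000057729, chr10:79879667-79883174) and Elane (ENSMUSG00000020125, chr10:79886312-79888216) are neighbors on the plus strand, 3137 bases apart with 0 listed genes between them. Mpo (ENSMUSG00000009350) is at chr11:87793784-87804412 on the plus strand, Ctsg (ENSMUSG00000040314) at chr14:56099885-56102574 on the minus strand and Ms4a3 (ENSMUSG00000024681) at chr19:11629499-11640851 on the minus strand. The 250 bases before each annotated start, from the RefSeq annotation of GRCm38.p6, are shown 5′ to 3′ on the strand of the gene. Capitals mark GGAAGT, the core bound by ETS factors such as PU.1. Whether the 5 genes share control through these bases was not tested. The windows span chr11:87793534-87793783 for Mpo, chr10:79886062-79886311 for Elane, chr10:79879417-79879666 for Prtn3, chr14:56102575-56102824 for Ctsg and chr19:11640852-11641101 for Ms4a3.
Mpo: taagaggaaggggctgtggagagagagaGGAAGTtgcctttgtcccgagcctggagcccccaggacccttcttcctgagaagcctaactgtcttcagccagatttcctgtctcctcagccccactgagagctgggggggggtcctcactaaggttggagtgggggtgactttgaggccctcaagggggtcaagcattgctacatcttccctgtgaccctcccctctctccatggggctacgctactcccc
Elane: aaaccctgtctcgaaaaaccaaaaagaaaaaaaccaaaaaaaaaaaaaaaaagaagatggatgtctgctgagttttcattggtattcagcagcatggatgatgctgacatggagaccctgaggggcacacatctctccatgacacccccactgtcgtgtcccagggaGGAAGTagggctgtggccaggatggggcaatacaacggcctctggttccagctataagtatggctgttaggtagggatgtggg
Prtn3: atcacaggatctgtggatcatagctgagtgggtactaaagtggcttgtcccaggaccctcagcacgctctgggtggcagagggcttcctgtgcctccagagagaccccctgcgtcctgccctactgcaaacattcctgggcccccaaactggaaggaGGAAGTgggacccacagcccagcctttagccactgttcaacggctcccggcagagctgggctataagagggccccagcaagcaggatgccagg
Ctsg: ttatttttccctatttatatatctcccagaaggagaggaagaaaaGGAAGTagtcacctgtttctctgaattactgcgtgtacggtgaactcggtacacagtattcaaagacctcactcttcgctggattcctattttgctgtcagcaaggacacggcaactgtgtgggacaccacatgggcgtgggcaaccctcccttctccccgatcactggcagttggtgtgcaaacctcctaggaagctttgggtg
Ms4a3: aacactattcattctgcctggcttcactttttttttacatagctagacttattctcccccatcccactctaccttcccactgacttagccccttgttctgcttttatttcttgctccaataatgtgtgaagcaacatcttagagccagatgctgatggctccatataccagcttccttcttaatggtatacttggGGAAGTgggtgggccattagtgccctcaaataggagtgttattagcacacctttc

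Both strands were searched for 5 motifs, picked after the sequences had been seen, in these windows and in all 32851 listed windows of the same length. GGAAGT was in 5 of 5 members and in 19.7% of all windows, and the longer GAGGAAGT, which contains it, in Mpo, Elane and Prtn3 and in 2.44% of all windows. In Elane the core lies 83 to 78 bases before the start and in Prtn3 93 to 88, each followed downstream by AACGG, at 50 to 46 and 55 to 51 bases. AACNG, the core bound by MYB, was in 4 of 5 members and in 74.2% of all windows. TGTGGT, bound by RUNX factors, was in Ctsg alone of the 5, and in 14.0% of all windows, and the C/EBP letters TTGCNNAA were in 0 of 5, and in 9.56%. A match describes letters and not a bound site.

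Each of the 5 genes was higher in the P8 and 89-week bone sections than in any fetal liver or spleen, while the ranges of livers and spleens overlapped except for Mpo. In the 89-week marrow Mpo stood at 1254 CPM, Elane at 1100.5, Prtn3 at 626, Ctsg at 437 and Ms4a3 at 114. In the P8 leg bone the same genes stood at 237, 269.6, 282, 164 and 57.7 CPM. Each gene was thus higher in the 89-week than in the P8 section, with exact Poisson 95% intervals that do not touch, which cover counting error only and not the spread between mice. The sections also differed in preparation, with bone removed from the 89-week one, so age and preparation cannot be told apart.

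Spots of other tissue entered the P8 values. In the 440 P8 spots with late neutrophil genes the levels were 376 CPM for Mpo, 443 for Elane and 457 for Prtn3. Ctsg stood there at 261 and Ms4a3 at 93.8 CPM. The sum of the 5 genes was 1631 CPM in these spots, against 1010.3 over all P8 spots. Late neutrophil genes vary with the 5 genes across spots of this section, so this choice of spots favors a higher value. It can also leave out marrow with few neutrophils. The 89-week section, at 3531 CPM, was not selected in this way. Since the spots hold mixed tissue, fewer cells of a type and less RNA per cell cannot be told apart here or below. The EDTA section held 7 UMIs of Mpo, 28 of Elane, 9 of Prtn3, 7 of Ctsg and 0 of Ms4a3, for which 0 of 37167 UMIs allows up to 80.7 CPM. Its five-gene sum of 1372 CPM had an interval of 1022 to 1804, and its gene by gene values are too thin to set beside the other marrow sections.

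The purchased fetal livers of the 2 stages differed most in Elane and Ctsg. Mpo stood at 107 CPM at E13.5 and 93.6 at E14.5, Prtn3 at 70.6 and 76.1, and Ms4a3 at 13.4 and 13.0. Elane was 28.4 CPM at E13.5 and 40.6 at E14.5, and Ctsg 36.3 and 56.8. The intervals of Ms4a3 overlapped between the stages, those of the other 4 genes did not, and with 1 section per stage the difference has no replicate check.

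**Figure D1:**
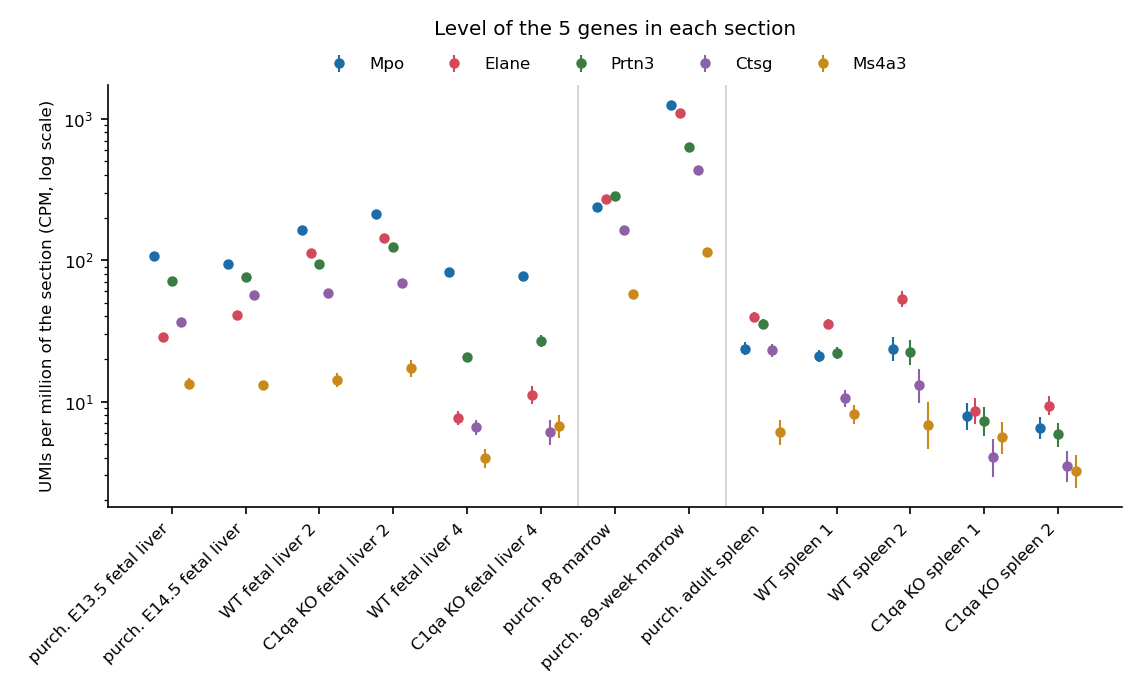
CPM of each of the 5 genes (log axis) in the 13 sections with at least 50 kept spots, ordered by tissue. Points are section values and bars exact Poisson 95% intervals, and the marrow sections stand above the other tissues for every gene, with the 2 knockout spleens lowest for Mpo, Prtn3 and Ctsg.

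In the adult spleen from the vendor, Mpo was 23.7 CPM, Elane 39.6, Prtn3 35.5, Ctsg 23.0 and Ms4a3 6.08. The wild-type spleens of the cross had 20.9 and 23.7 CPM of Mpo. Spleen thus held about as much Mpo in all 3 wild-type mice, while Ctsg, at 10.6 and 13.0 CPM in the cross, was lower than in the purchased spleen.

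The members were also measured against each other within a section. Ratios of UMIs to Mpo are compared only across sections, since probes of different genes catch unequally. Elane to Mpo was 0.688 and 0.093 in the wild-type livers 2 and 4, and 0.674 and 0.145 in the knockout livers. It reached 1.71 and 2.26 in wild-type spleens, against 1.1 and 1.44 in knockout spleens. Every spleen was above every liver. In the purchased sections the same ratio was 0.264 at E13.5, 0.434 at E14.5, 1.14 in P8 bone, 0.878 in 89-week marrow and 1.67 in spleen, so that the livers were lowest there too.

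The other 3 genes were also lower against Mpo in each liver of the cross than in each of its spleens. Prtn3 to Mpo spanned 0.251 to 0.579 in the 4 livers of the cross and 0.899 to 1.06 in the 4 spleens, Ctsg to Mpo 0.079 to 0.359 and 0.507 to 0.550, and Ms4a3 to Mpo 0.048 to 0.087 and 0.290 to 0.711. In those spleens Ms4a3, at 3.23 to 8.13 CPM, lay near the level of the cartilage gene Acan (3.40 to 11.4 CPM). Its ratio to Mpo there rests on values close to the lowest signal. In the purchased sections the livers were not lowest for Prtn3 and Ms4a3: Prtn3 to Mpo was 0.658 at E13.5, 0.813 at E14.5 and 0.500 in 89-week marrow, and Ms4a3 to Mpo 0.125, 0.139 and 0.091. Ctsg to Mpo was 0.338, 0.607 and 0.348 in the same order, so that the E13.5 liver was lowest for it, just below the 89-week marrow. Over the cross, on the log2 scale, the mean difference of liver minus spleen was -2.48 for Elane, -1.21 for Prtn3, -1.68 for Ctsg and -2.60 for Ms4a3. With 4 sections against 4 each reached p = 0.0286 by a two-sided exact permutation test, the smallest p it can give, and 0.0857 after adjustment over 12 tests of such ratios. None passed the threshold of 0.05 after that adjustment.

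**Figure D2:**
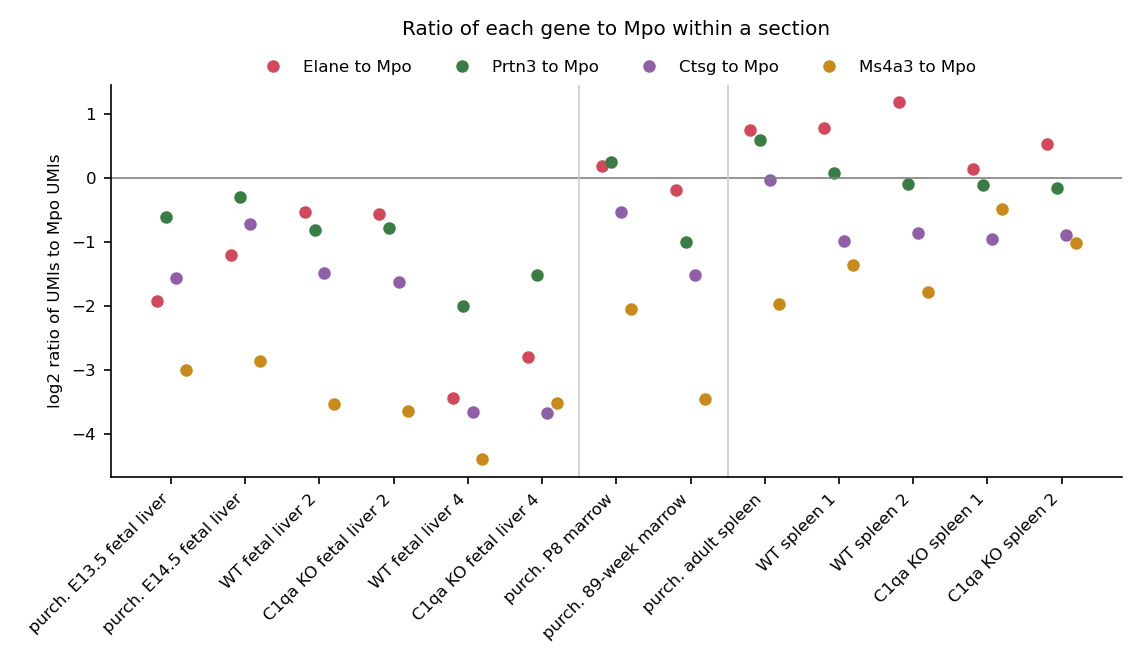
log2 ratio of the UMIs of Elane, Prtn3, Ctsg and Ms4a3 to those of Mpo within each section, 1 point per gene and section. For every gene the 4 spleens of the cross lie above its 4 fetal livers, and the livers numbered 4 lie lowest for Elane, Prtn3 and Ctsg. Ms4a3 in those spleens was near the level of a cartilage gene.

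To find where in the fetal livers the 5 genes lay, spots in which hepatocyte genes made up 0.5% of UMIs or more were set against the other spots of the same section. In every section all 5 genes were higher in the hepatocyte-gene spots, where the liver parenchyma is. Mpo was 171, 188, 219 and 105 CPM in those spots of wild-type livers 2 and 4 and knockout livers 2 and 4. It was 0, 7.96, 6.03 and 9.19 CPM in the other spots of the same sections, where 0 of 719646 UMIs in wild-type liver 2 allows up to 4.17 CPM. In each section the summed Mpo level of the hepatocyte-gene spots was above that of the other spots, and single spots were not compared.

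Elane was 117, 15.7, 147 and 12.8 CPM in the hepatocyte-gene spots, in the same order, and 0, 2.03, 6.03 and 7.14 CPM elsewhere. Prtn3 was 96.6, 42.7, 127 and 33.0 CPM in the first and 1.39, 5.10, 9.04 and 12 CPM in the second. Both proteases had their narrowest margin in knockout liver 4. Ctsg was 61.1, 14.0, 70.8 and 7.30 CPM in the first and 1.39, 1.3, 3.01 and 3.06 CPM in the second. Ms4a3 was 14.8, 6.32, 17.7 and 7.38 CPM in the first and 0, 2.29, 0 and 5.10 CPM in the second, where the zeros allow up to 4.17 and 9.04 CPM. Every section was higher in its hepatocyte-gene spots for each of the 5 genes, with the narrowest margin for Ms4a3 in knockout liver 4.

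In edgeR's quasi-likelihood test with section as a block, 5 of 5 members were called higher in hepatocyte-gene spots, against 16.8% of all genes tested. The log2 differences were 5.15 ± 0.51 for Mpo (SE, adjusted p = 0.000317), 3.60 ± 0.74 for Elane (0.0071), 3.57 ± 0.54 for Prtn3 (0.00174), 3.71 ± 0.56 for Ctsg (0.00173) and 2.31 ± 0.65 for Ms4a3 (0.0276). Erythroid genes were higher in the same spots for 9 of 9 (median log2 difference 5.64, against 0.19 over all genes), and late neutrophil genes for 7 of 12. Of 9 tested genes that serve the granule, Srgn (the proteoglycan serglycin that packs it), Cst7, Gusb and Ctsc (cathepsin C, which activates the serine proteases) were higher and Cd63 lower, and of 10 myeloid regulators 7 were higher, led by Myb, Cebpa and Spi1 (PU.1). Without knockout liver 2 the calls on Elane (adjusted p = 0.0648) and Ms4a3 (0.102) were lost.

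**Figure D3:**
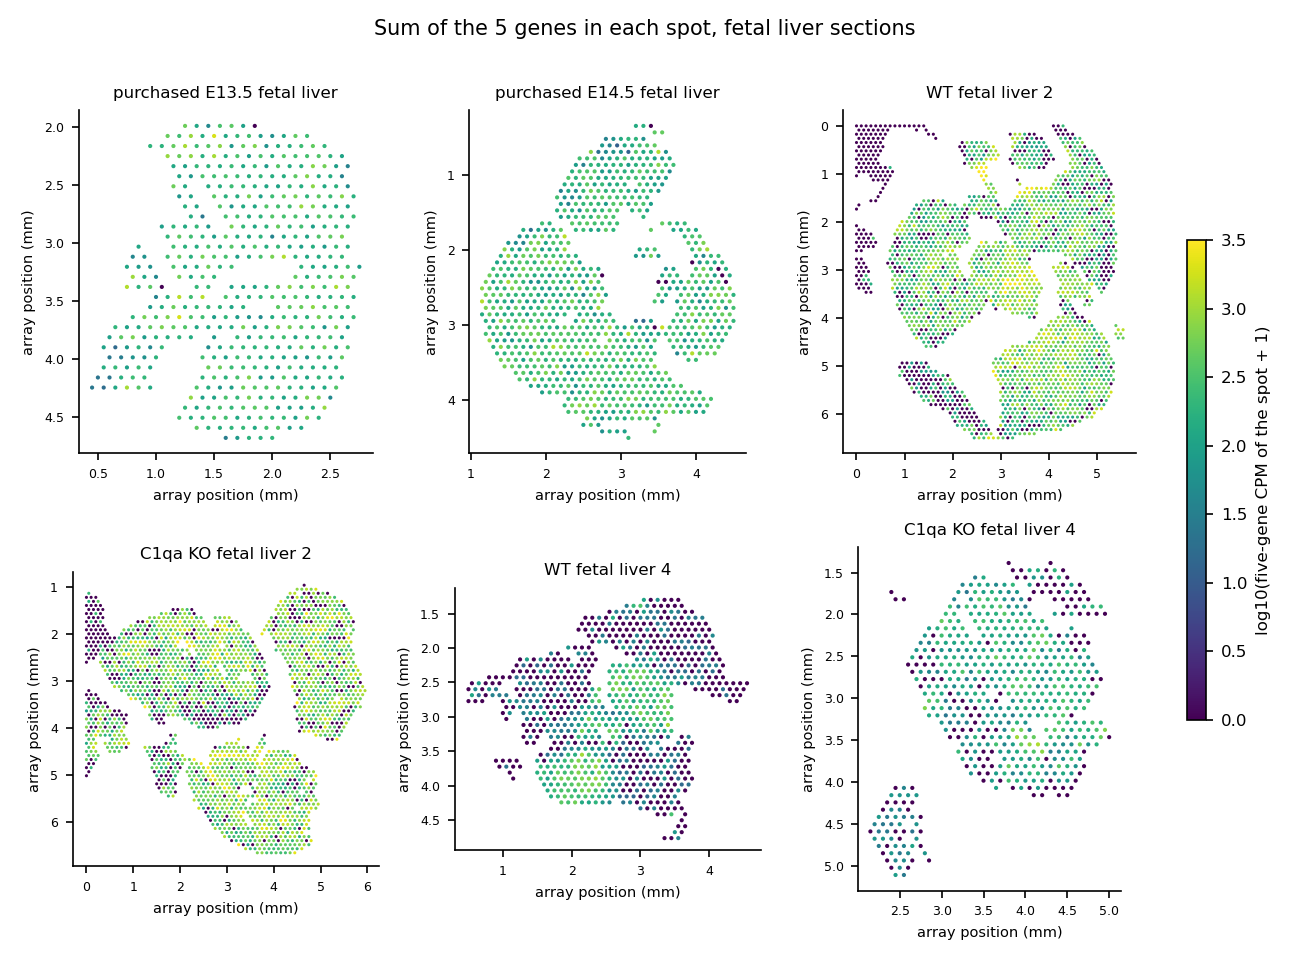
Sum of the 5 genes in every kept spot of the 6 fetal liver sections, as log10(CPM of the spot + 1), at its array position in mm, with 1 color scale for all panels. Spots without any of the 5 genes (dark) fill whole pieces of the sections in the livers of the cross and are few in the purchased livers.

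Within the parenchyma, the 5 genes differed little between border and interior. Hepatocyte-gene spots at the border of the tissue, with fewer than 6 such spots adjacent, were compared with inner spots that had 6. Prtn3 was 93.5, 29.4, 132 and 34.1 CPM in the outer spots of wild-type livers 2 and 4 and knockout livers 2 and 4, and 97.3, 49.3, 125 and 32.5 CPM in the inner ones. It was lower outside in the 2 wild-type livers and slightly higher in the 2 knockout livers on the CPM scale.

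Prtn3 was nevertheless the 1 member called lower in outer spots (edgeR, log2 difference -0.39 ± 0.10, adjusted p = 0.0211), where 7.13% of all genes were, on factors that correct for a median of -0.08 over all genes. The call was lost with DESeq2 (adjusted p = 0.0518), with upper-quartile factors (0.0542) and on leaving out any 1 of the 4 livers (0.065 to 0.285), and Mpo was called without wild-type liver 2 (-0.37, 0.0157). Mpo (-0.24), Elane (-0.30), Ctsg (-0.28) and Ms4a3 (-0.29) did not pass the test. In the same contrast erythroid genes were lower in outer spots for 9 of 9, hepatocyte genes for 8 of 8, megakaryocyte genes for 6 of 7, macrophage genes for 4 of 9 and late neutrophil genes for 4 of 12, and muscle genes were higher for 4 of 5, and their part in the call was not tested.

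The question of whether loss of C1qa changes the 5 genes in fetal liver met a spread between litters that was larger than any genotype difference. Mpo was 164 and 82.7 CPM in wild-type livers 2 and 4 and 213 and 77.0 CPM in the knockout livers of the same litters. Elane was 113 and 7.70 CPM in the wild types and 143 and 11.1 CPM in the knockouts. Prtn3 was 93.2 and 20.7 against 123 and 26.9 CPM, Ctsg 59.0 and 6.59 against 68.8 and 6.07, and Ms4a3 14.3 and 3.97 against 17.1 and 6.72. In each gene the 2 livers of litter 2 were above the 2 of litter 4, and the genotypes interleaved.

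The five-gene sum was 283 ± 228 CPM in wild-type and 346 ± 309 CPM in knockout livers (SD, n = 2 each). With edgeR the log2 differences of knockout against wild type were 0.10 ± 0.91 for Mpo, 0.18 ± 1.59 for Elane, 0.23 ± 1.17 for Prtn3, 0.04 ± 1.47 for Ctsg and 0.16 ± 1.03 for Ms4a3 (SE), with adjusted p = 1.00 for each. None of 18986 genes passed (0% called), while 138 had p below 0.05 before adjustment and DESeq2 called 15. With litter as a block, 157 genes passed (0.827%) and still 0 members, whose differences lay between -0.15 and 0.29 (adjusted p 0.919 to 0.954). Leaving out wild-type liver 2 alone brought calls on Elane (4.00, adjusted p = 0.00173) and Ctsg (3.18, 0.0136), in a fit where 1 wild-type liver of litter 4 stands against 1 knockout liver of each litter.

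The gap between the litters was therefore measured itself, a comparison chosen after seeing the data, in the hepatocyte-gene spots alone and with genotype as a covariate. Against 171 and 219 CPM in the livers of litter 2, Mpo was 188 and 105 CPM in those of litter 4, so that its values overlapped. Elane was 117 and 147 CPM in litter 2 and 15.7 and 12.8 CPM in litter 4, Prtn3 96.6 and 127 against 42.7 and 33.0, Ctsg 61.1 and 70.8 against 14.0 and 7.30, and Ms4a3 14.8 and 17.7 against 6.32 and 7.38. The 3 serine proteases and Ms4a3 did not overlap between the litters.

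With edgeR all 5 were called lower in litter 4, as were 11% of the genes tested. The log2 differences were -1.16 ± 0.35 for Mpo (adjusted p = 0.0082), -3.91 ± 0.33 for Elane (6.5e-30), -2.26 ± 0.30 for Prtn3 (6.39e-12), -3.37 ± 0.29 for Ctsg (4.79e-28) and -1.94 ± 0.28 for Ms4a3 (1.39e-10), against a median of 0.14 over all genes. They rest on edgeR's scaling factors and are wider than the CPM values alone give. The call on Mpo was lost on leaving out wild-type liver 2 (adjusted p = 0.351), knockout liver 2 (0.403) or knockout liver 4 (0.213), and the others held. These p-values rest on a spread shared across genes, since 4 sections with 2 factors leave little of their own, and litter cannot be told apart from the section, its depth (median UMIs per spot 8716 and 5170 in litter 2, 46654 and 28497 in litter 4) or its pieces of other tissue.

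Other genes of the lineage lay lower in the livers of litter 4 as well. Late neutrophil genes were called lower for 9 of 12 (median -3.24), led by Lcn2, Ngp and Ltf, and the granule accessory genes Ctsc, Srgn, Cst7 and Prss57 were called lower too. Among the regulators, Cebpe, the C/EBP factor of late granulopoiesis, was 21.8 and 17.2 CPM in litter 2 and 7.10 and 7.80 CPM in litter 4 (log2 -2.08 ± 0.27, adjusted p = 5.09e-13), and Spi1, Cebpa, Csf3r and Cebpb were lower too. Myb, at 67.3 and 80.2 against 129 and 152 CPM, and Gfi1, at 2.98 and 3.83 against 4.01 and 5.12 CPM, were not called. Monocyte genes were lower for 5 of 7, macrophage genes for 8 of 9, hepatocyte genes for 6 of 8 and erythroid genes for 4 of 9, and the part of each in the gap was not tested.

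In spleen, 4 of the 5 genes were lower in the C1qa knockouts. Elane was 35.6 and 53.5 CPM in the wild-type spleens and 8.59 and 9.37 CPM in the knockout spleens. Mpo was 20.9 and 23.7 against 7.84 and 6.52 CPM, and Prtn3 22.1 and 22.2 against 7.27 and 5.86 CPM. For these genes the genotypes lay well apart. Ctsg was 10.6 and 13.0 against 4.06 and 3.51 CPM, and Ms4a3 8.13 and 6.86 against 5.57 and 3.23 CPM, so that all 5 genes kept the genotypes apart. Of 5 cartilage genes 2 were called lower in the knockouts too and 0 higher. These were Acan (9.58 and 11.4 against 5.10 and 3.40 CPM) and Matn3 (12.8 and 14.7 against 6.89 and 4.98 CPM). Ms4a3, and Ctsg in the knockouts, lay near the level of these genes, and whether low values shifted as a whole was not tested.

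The five-gene sum was 108 ± 15.6 CPM in wild-type and 30.9 ± 3.43 CPM in knockout spleens (SD, n = 2 each), and 128 CPM in the purchased spleen. With edgeR the log2 differences were -2.01 ± 0.22 for Elane (adjusted p = 9.58e-06), -1.37 ± 0.23 for Mpo (0.000446), -1.51 ± 0.23 for Prtn3 (0.000221) and -1.36 ± 0.28 for Ctsg (0.00261), and -0.59 ± 0.31 for Ms4a3, which did not pass (0.163). Those 4 calls of 5 stand against 20.6% of 18895 genes called and 6.79% called lower. With upper-quartile factors, which put the median of all genes at -0.37 in place of -0.08, 4400 genes were called lower and 1197 higher, against 1283 and 2603. These p-values rest on a spread shared across genes, since 2 spleens per genotype leave little of their own. The 4 calls held with DESeq2, with upper-quartile factors, without pancreas-gene spots, with the number as a block and on leaving out each spleen, and without knockout spleen 1 Ms4a3 was called too (-0.92, adjusted p = 0.0406).

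Genes of later neutrophils were lower in the same sections. Late neutrophil genes were called lower for 11 of 12 (median -1.62, against -0.08 over all genes): Camp (cathelicidin) stood at 171 and 129 CPM in the wild types against 2.27 and 8.00 CPM in the knockouts, and Ltf (lactoferrin) 66.7 and 56.3 against 5.48 and 6.63 CPM. Of the regulators, Cebpe (12.1 and 13.5 against 6.61 and 4.00 CPM, log2 -1.04 ± 0.27, adjusted p = 0.013) and Csf3r, the receptor for G-CSF (41.9 and 37.4 against 18.5 and 22.7 CPM, -0.68 ± 0.19, 0.0175), were lower and Spi1 and Cbfb higher. Of the accessory genes 0 were called lower, and Calr (calreticulin) was called higher, while Prss57, a further serine protease of azurophil granules, was 7.98 and 7.57 against 5.29 and 3.07 CPM (-0.69 ± 0.31, adjusted p = 0.106).

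Other cell types differed between the same spleens. Erythroid genes were called lower for 9 of 9 (median -1.97), with a summed share of 0.292% and 0.109% of UMIs in the wild-type and 0.0353% and 0.0589% in the knockout spleens, and pancreas genes higher for 7 of 7 tested. In the purchased wild-type spleen, whose library was made and counted separately, the erythroid share was 0.0372% and the five-gene sum 128 CPM. Macrophage genes were higher for 4 of 9, C1qb, Cd163, Vcam1 and Spic, lymphoid genes for 2 of 14 and eosinophil genes for 2 of 6. Megakaryocyte genes were lower for 3 of 7, Pf4, Gp1ba and Gp9. Their part in the difference of the 5 genes was not tested.

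Where in the spleen the genes lay was measured by ordering the spots of each section by their share of lymphoid UMIs and taking 1 in 3 from each end, called the lymphoid-poor and the lymphoid-rich zone. The lymphoid-poor zone, where erythroid and macrophage genes were higher (9 of 9 called for each), was higher than the lymphoid-rich zone for Mpo, Elane, Prtn3 and Ctsg in both wild-type spleens, and the zones lay closer together in the knockouts. Elane was 69.0 and 96.1 CPM in the lymphoid-poor and 17.2 and 30.7 CPM in the lymphoid-rich zone of wild-type spleens 1 and 2. In knockout spleens 1 and 2 it was 10.6 and 9.47 CPM in the lymphoid-poor and 7.78 and 9.36 CPM in the lymphoid-rich zone. The wild-type contrast was several-fold and that of the knockouts slight.

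Mpo was 38.4 and 46.6 CPM in lymphoid-poor and 11 and 10.7 CPM in lymphoid-rich zones of the wild types, and 8.95 and 8.57 against 8.07 and 6.41 CPM in the knockouts. Prtn3 was 40.3 and 45.2 against 11.7 and 8.56 CPM in the wild types, and 7.55 and 8.11 against 6.34 and 4.33 CPM in the knockouts. Ctsg was 16.5 and 24.4 against 8.02 and 7.84 CPM, and 3.91 and 3.91 against 4.61 and 3.29 CPM. Ms4a3 differed from the others, at 8.36 and 9.74 against 8.86 and 4.28 CPM in the wild types and 5.59 and 3.31 against 6.05 and 3.29 CPM in the knockouts, with no common direction. In the purchased spleen all 5 were higher in the lymphoid-poor zone, by 62.9 against 7.22 CPM for Mpo, 104 against 11.8 for Elane and 17.8 against 1.48 for Ms4a3.

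**Figure D4:**
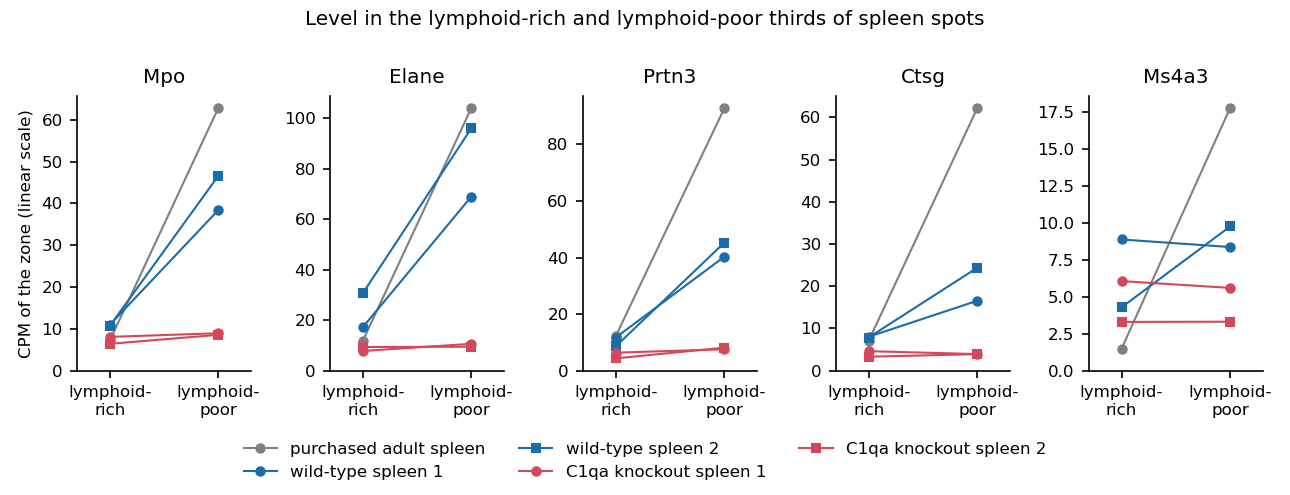
CPM of each gene in the lymphoid-rich and lymphoid-poor zone of the spots of the 5 spleens (linear axes, a separate scale for each gene), 1 line per section. Lines of the purchased and wild-type spleens rise steeply toward the lymphoid-poor zone for Mpo, Elane, Prtn3 and Ctsg, and those of the knockout spleens stay near the bottom.

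The 4 spleens were then tested together. With section as a block, edgeR called 4 of 5 members higher in the lymphoid-poor zone, against 7.06% of all genes. The log2 differences were 1.40 ± 0.29 for Mpo (adjusted p = 0.0127), 1.39 ± 0.29 for Elane (0.0137), 1.62 ± 0.27 for Prtn3 (0.00415) and 0.99 ± 0.24 for Ctsg (0.0272), and 0.26 ± 0.20 for Ms4a3 (0.485). In the wild-type spleens alone the same 4 were called, at 2.11, 2.09, 2.14 and 1.40 (10.6% of all genes), and in the knockouts alone 0 of 5, at 0.51, 0.39, 0.84 and 0.25 (9.52%). Without wild-type spleen 2 Prtn3 alone held (adjusted p = 0.0459), and without wild-type spleen 1 Ctsg was lost (0.187).

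The difference between the genotypes in this contrast was tested as an interaction of zone and genotype, chosen after seeing the data. The lymphoid-poor excess was smaller in knockouts by 1.56 ± 0.30 on the log2 scale for Mpo (edgeR, adjusted p = 0.00162), 1.69 ± 0.27 for Elane (0.000212) and 1.26 ± 0.34 for Prtn3 (0.0268). Ctsg (-1.11 ± 0.41, 0.124) and Ms4a3 (-0.19 ± 0.43, 0.892) did not pass. Over the whole knockout sections Mpo (7.84 and 6.52 CPM), Elane (8.59 and 9.37) and Prtn3 (7.27 and 5.86) lay close to the cartilage gene Matn3 (6.89 and 4.98). So near the lowest signal a fold difference between zones can be hidden, and a smaller excess cannot be told apart from a low level. Of all genes 2.72% were called in that direction, among them 8 of 9 erythroid and 7 of 12 late neutrophil genes. DESeq2 called Elane alone (adjusted p = 0.0411), and Prtn3 was lost without wild-type spleen 1 (0.128), wild-type spleen 2 (0.083) or knockout spleen 1 (0.298), and Mpo without wild-type spleen 1 (0.0515). The lymphoid-poor zones of the knockouts held 1.13% and 6.83% pancreas-gene UMIs, and without those spots 4 members passed, Ctsg included (-1.34, adjusted p = 0.0366).

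The 5 genes were also set against the border of the spleen, where outer spots have fewer than 6 kept neighbors. Mpo was 28.8, 34.6, 12 and 15.7 CPM in outer spots of wild-type spleens 1 and 2 and knockout spleens 1 and 2, and 19.6, 20.3, 7.36 and 5.32 CPM in inner spots. Prtn3 was 29.6, 37.7, 11.1 and 12.9 CPM outside and 20.9, 17.6, 6.84 and 4.95 CPM inside. Both were higher outside in 4 of 4 spleens and in the purchased spleen, where Mpo was 88.0 and 15.4 CPM.

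By edgeR, Mpo (0.99 ± 0.21, adjusted p = 0.00705) and Prtn3 (0.99 ± 0.20, 0.00519) were called higher in outer spots, 2 of 5 members against 4.63% of all genes. Elane (0.49, 0.0625), Ctsg (0.82, 0.0664) and Ms4a3 (0.38, 0.356) did not pass. Erythroid and macrophage genes were higher outside for 9 of 9 each, late neutrophil genes for 8 of 12 and pancreas genes for 7 of 7 tested, while lymphoid genes were lower for 11 of 14. Without pancreas-gene spots Elane was called as well (0.45, adjusted p = 0.0412).

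Fetal liver and spleen of the cross were compared over all 8 sections with genotype as a covariate. Mpo, between 77.0 and 213 CPM in the livers and 6.52 and 23.7 CPM in the spleens, did not overlap, whereas the ranges of livers and spleens overlapped for Elane, Prtn3, Ctsg and Ms4a3. By edgeR 4 of 5 members were called higher in liver, against 25.6% of all genes (46.8% in either direction): Mpo (4.36 ± 0.65, adjusted p = 0.000581), Prtn3 (3.48 ± 0.82, 0.00717), Ctsg (3.49 ± 1.00, 0.018) and Ms4a3 (1.84 ± 0.63, 0.0366). Elane, at 2.89 ± 1.12, did not pass (0.0555). These differences rest on edgeR's scaling factors, with a median of -0.10 over all genes, and are larger than the CPM values alone give. In the wild-type sections alone Mpo was the 1 member called (3.62, adjusted p = 0.0183; 18.2% of all genes). Without wild-type liver 2, knockout liver 2 or knockout spleen 1 Mpo and Prtn3 alone held, without any other spleen Ms4a3 was lost, and without either liver 4 Elane was called too. Late neutrophil genes were higher in liver for 5 of 12 and lower for 1, Cxcr2, erythroid genes higher for 9 of 9 and regulators lower for 3 of 10, Csf2rb, Gfi1 and Cbfb.

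Whether the genotype difference itself differed between spleen and fetal liver depended on the litters. Without them in the model, 0 members and 0 of 19180 genes were called by edgeR (2018 had p below 0.05 before adjustment, and DESeq2 called 8), with differences from -0.73 for Ms4a3 to -2.26 for Elane (adjusted p 0.545 to 0.82). With the litters of the livers, given by the numbers of their dams, as a block, 1409 genes were called (7.35%, and 1.74% lower in spleen). The members called were Elane (-2.23, adjusted p = 0.000436), Prtn3 (-1.68, 0.00264), Mpo (-1.29, 0.0211) and Ctsg (-1.22, 0.0411), with Ms4a3 at -0.86 (0.176).

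The 5 genes, taken as a sum, were clustered among adjacent spots to a degree that differed by section. Moran's I, which is near 0 for scattered and near 1 for smoothly grouped values, was computed for the five-gene sum on the study's scale, log2 of counts per 6000 plus 1. It was 0.502 and 0.774 in wild-type livers 2 and 4, and 0.319 and 0.460 in the knockout livers. Among spleens it was 0.316 and 0.242 for the wild types against 0.028 and 0.190 for the knockouts. The highest values were in the livers and the lowest in knockout spleen 1.

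Among the purchased sections Moran's I was 0.164 in both fetal livers, 0.731 in P8 bone, 0.090 in 89-week marrow and 0.255 in spleen. In 12 of 13 sections the five-gene sum was above 94.6% to 99.5% of the genes compared, and in knockout spleen 1 above 80.6%. The medians of those genes were 0.005 to 0.079. Each of them was measured singly, while the sum pools the UMIs of its members, which can by itself raise Moran's I. These ranks do not compare like with like and are a description only. The marrow of the old mouse thus had the highest level and, apart from knockout spleen 1, the lowest clustering. Of the members taken singly, Ms4a3 had the lowest Moran's I in all of these sections but the 2 knockout spleens, where Ctsg was lowest.

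Livers exceeded spleens of the cross by 0.319 in mean Moran's I (p = 0.0286 by a two-sided exact permutation test, the smallest possible, and 0.171 adjusted over 6 tests). In hepatocyte-gene spots alone, without the pieces of other tissue, the values fell to 0.454, 0.469, 0.274 and 0.277, and the difference from spleen to 0.173 (p = 0.114, exact permutation). Knockouts were below wild types by 0.249 in liver and 0.170 in spleen, where 2 sections against 2 cannot give an exact permutation p under 0.333, the value for both (0.500 adjusted). Thinned to 2000 UMIs per spot, the livers of the cross exceeded the spleens by 0.113 (p = 0.229, exact permutation), and without the log by 0.233 (p = 0.0857, exact permutation).

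**Figure D5:**
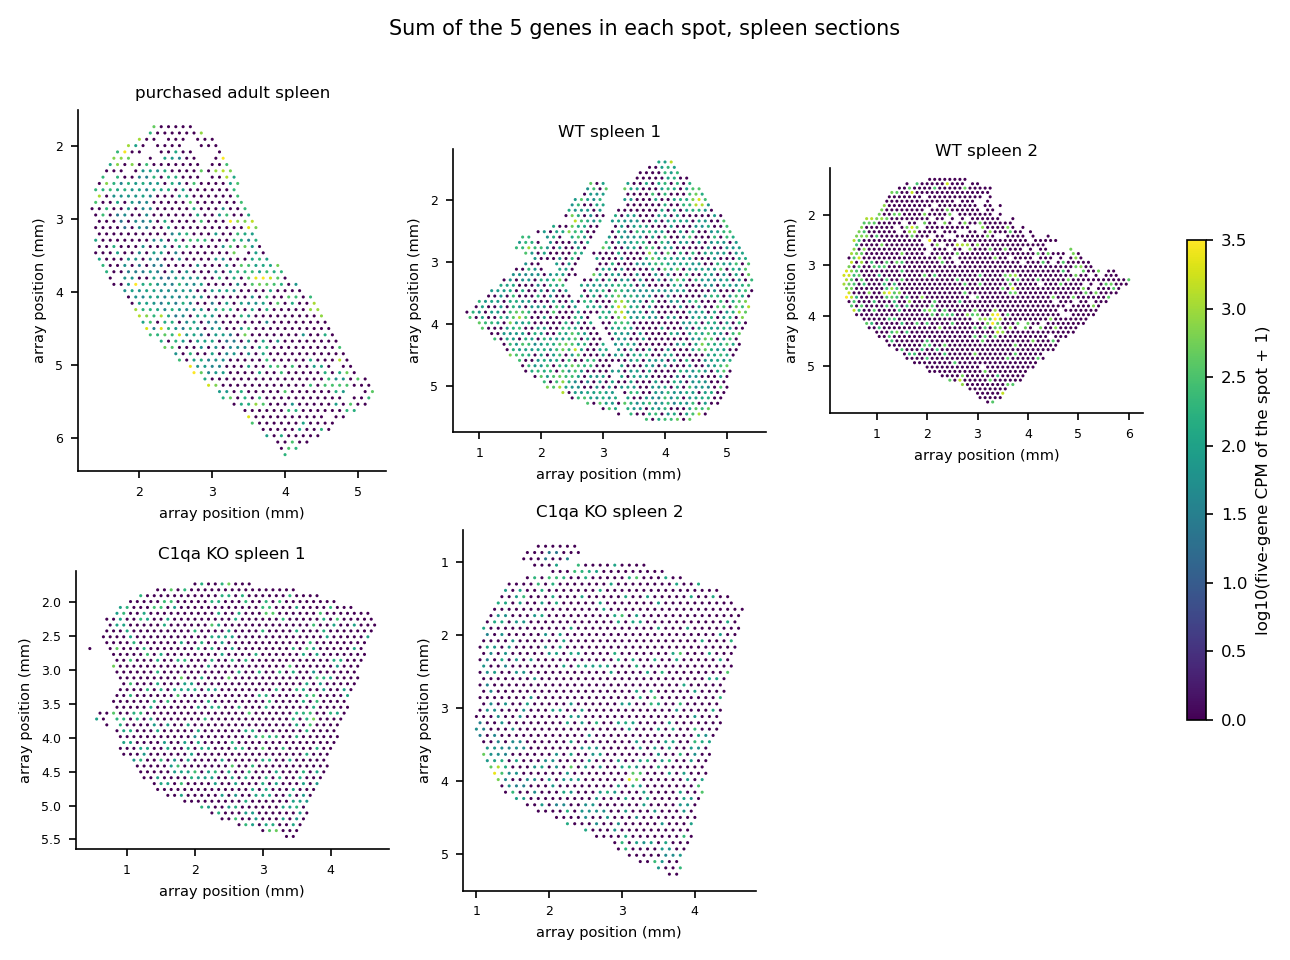
Sum of the 5 genes in every kept spot of the 5 spleen sections, as log10(CPM of the spot + 1), at its array position in mm, with 1 color scale for all panels. High spots (yellow) form small foci in the purchased and wild-type spleens, many of them along the border. Knockout spleen 1 has none and knockout spleen 2 has a few. The color depends on depth, since a single UMI gives more CPM in a shallow spot. Median UMIs per spot were 2294 in wild-type spleen 2 and 7846 in knockout spleen 1.

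The tenth of spots with the highest five-gene CPM was picked by that value, and its share of the UMIs rises where UMIs per spot are few, so that the shares are a description and are not compared between sections. These spots held 78.0% of the five-gene UMIs in wild-type spleen 2, 65.8% in the purchased spleen, 63.8% and 55.5% in knockout spleens 2 and 1 and 45.4% in wild-type spleen 1, 22.9% in the 89-week marrow and 28.1% in the purchased E14.5 liver. Kept spots with a UMI of any of the 5 genes were 59.1% and 16.3% of spots in the wild-type and 22.0% and 23.3% in the knockout spleens, and wild-type spleen 2 is the shallowest of them, with a median of 2294 UMIs per spot. Spots beside a top-tenth spot had 1.71 and 1.36 times the CPM of spots farther away in wild-type spleens 1 and 2, and 0.830 and 0.883 times in knockout spleens 1 and 2. In livers 2 and 4 the same ratio was 1.97 and 6.58 in the wild types and 1.62 and 1.83 in the knockouts, and it was 3.64 in P8 bone and 1.07 in 89-week marrow.

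Patches of adjacent top-tenth spots held varying parts of a section's signal. The largest patch held 26.4% of five-gene UMIs in wild-type liver 4, 13.7% and 9.13% in wild-type spleens 2 and 1 and 5.38% in knockout spleen 1. In knockout spleen 2 it had 8 spots and 102 of the section's 520 five-gene UMIs (19.6%), or 585 CPM against 23.1 CPM elsewhere. The patch held 38 UMIs of Mpo, 31 of Elane, 24 of Prtn3, 8 of Ctsg and 1 of Ms4a3, and late neutrophil genes took 0.126% of its UMIs against 0.0152% elsewhere. Without the largest patch Moran's I was 0.107 in knockout spleen 2, 0.0128 in knockout spleen 1 and 0.271 and 0.201 in the wild-type spleens. The highest five-gene count in 1 spot was 276 in P8 bone, 202 in the purchased spleen and 5 in knockout spleen 1.

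How far the members varied together from spot to spot differed by section and did not follow their level alone. Pearson's r between pairs of the 5 genes, over spots that share a library and its depth, was 0.60 to 0.76 in P8 bone, 0.51 to 0.73 in E13.5 liver, 0.48 to 0.66 in the purchased spleen and 0.27 to 0.66 in 89-week marrow. In wild-type and knockout liver 2, with more five-gene CPM than that spleen, it was 0.13 to 0.49 and 0.07 to 0.32. It was -0.04 to 0.08 in knockout spleen 1, where the 5 genes had 353 UMIs in all, and in knockout spleen 2 it was 0.16 to 0.42 among Mpo, Elane, Prtn3 and Ctsg and at most 0.04 for pairs with Ms4a3.

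The ratio of the 5 genes to late neutrophil genes, which compares the early with the later steps of granule formation, was higher in 5 of the 6 fetal livers than in the marrow sections. On the log2 scale it was -0.75 and -0.90 in the purchased E13.5 and E14.5 livers, -2.80 in P8 bone, -2.96 in 89-week marrow and -2.70 in adult spleen. In the cross it was -2.98 and -0.31 in wild-type livers 2 and 4, and -1.98 and -0.99 in the knockout livers. Among spleens it was -2.88 and -2.41 for the wild types against -1.69 and -2.51 for the knockouts. Wild-type liver 2, with 3511 CPM of late neutrophil UMIs against 151 in wild-type liver 4, had the lowest ratio of the 13 sections named here, but this rested on S100a8 and S100a9: without these genes its ratio was -1.17, against -1.80 in P8 bone, -2.02 in 89-week marrow and -2.15 and -1.64 in the wild-type spleens, so that 6 of 6 livers were above both marrow sections.

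The ratio differed by 0.17 between knockout and wild-type livers (p = 1.00), by 0.55 between the spleens (p = 0.667) and by 0.81 between liver and spleen (p = 0.286), by exact permutation tests, or 1.00, 0.8 and 0.500 adjusted over the same 6 tests. The liver to spleen difference was 1.48 without S100a8 and S100a9 (p = 0.0571, exact permutation) and 1.25 as a mean of log values over genes (p = 0.0286, exact permutation, the smallest possible). Between the spleens these alternatives gave 0.77 and 0.61, each with p = 0.333, the smallest that 2 sections against 2 allow in an exact permutation test, so that this design could not call a difference in the ratio.

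The genes whose spots were most like those of the five-gene sum were ranked by the median of r over 13 sections, among 7967 genes detected in at least 50 spots of each. Plac8, expressed in myeloid progenitors, came first at 0.415 (range -0.148 to 0.729), followed by S100a8 (0.405) and S100a9 (0.361), the calgranulins of neutrophils and monocytes, then Srgn (0.282) and Ncf1 (0.260), a subunit of the phagocyte oxidase. The next 5 were Hbb-bt, Hba-a2, Arhgdib, Hbb-bs and Car2 (0.253 to 0.238), of which 4 are erythroid. Plac8, S100a8 and S100a9 also led in the 6 fetal livers and the 2 marrow sections, and S100a8, S100a9 and Car2 led in the 5 spleens, at 0.276, 0.255 and 0.240.

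The spot to spot relation with whole gene lists differed by section. With late neutrophil genes r was highest in P8 bone (0.73) and wild-type liver 2 (0.60) and lowest in knockout spleen 1 (0.02). With erythroid genes it was 0.78 in wild-type liver 4 and 0.75 in P8 bone, sections that hold much non-hematopoietic tissue, 0.27 and 0.21 in the wild-type spleens, about 0 in the purchased livers and -0.32 in 89-week marrow. In 89-week marrow the 5 genes thus went against erythroid genes and with granule accessory genes (0.51). With lymphoid genes r was -0.31 in the purchased spleen, -0.32 and -0.20 for wild-type spleens 1 and 2, and -0.00 and 0.03 for knockout spleens 1 and 2.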

How the data were processed

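Visium probe libraries of 14 sections were examined. The deposited tables hold raw counts of UMIs for each spot, which the authors made with Space Ranger on mm10; matrix headers name Cell Ranger 4 and Space Ranger 2.1.1, 3.1.2 and 4.0.1, and tables of the purchased mice also hold off-tissue spots. The members and lists were chosen with earlier results of these data known. On-tissue spots with at least 1000 genes were kept and their counts summed per section or zone, since spots of 1 section are not replicates. Sums were tested across all genes with edgeR 4.0.16 (R 4.3.3; TMM factors, filterByExpr, quasi-likelihood test, Benjamini-Hochberg adjustment, threshold 0.05), which was tested on simulated data. The members and, in stated groups, genes of 17 lists are named. DESeq2 1.42.0, upper-quartile factors, no filter, thinned counts, other spot sets, blocks and leaving out sections were alternatives. Moran's I used log2(counts per 6000 + 1), and single values were compared by exact permutation over sections. Kept UMIs per section, 4225805 to 56182915 without the EDTA section, set the precision; Poisson 95% intervals and limits from 3 counts cover counting error only. Same-numbered fetal livers are littermates, and their deviations from group means correlated at 0.652 over genes; for spleens the labels state no pairing. A result on 1 accessory gene is not reported here.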

Additional observations from a re-analysis of the deposited data

Results flagged for a closer look

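The excess of Mpo, Elane and Prtn3 in lymphoid-poor spleen spots was tested for a difference between genotypes after the data had been seen, and differed by -1.56, -1.69 and -1.26 on the log2 scale, knockout minus wild type. The knockout levels were close to that of a cartilage gene, so a smaller excess cannot be told apart from a low level. The genotype difference in spleen, minus that in fetal liver with litter as a block, was -1.29 for Mpo, -2.23 for Elane, -1.68 for Prtn3 and -1.22 for Ctsg on the log2 scale, and passed the test in that fit.

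Off-tissue spots of the purchased slides, which enter no comparison, also held UMIs of the 5 genes. Per spot they amounted to 8.11% of the in-tissue level in the E14.5 liver, 3.72% in the E13.5 liver, 12.6% in P8 bone, 26.0% in 89-week marrow, 19.1% in adult spleen and 1.91% in the EDTA section. For all UMIs the same shares were 8.20%, 3.98%, 13.3%, 22.9%, 11.8% and 1.65%, so that the adult spleen had the widest gap between the 5 genes and all UMIs.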

How the results depend on the processing

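In knockout against wild-type livers, Mpo and Ctsg turned from 0.10 and 0.04 to -0.23 and -0.0583 in hepatocyte-gene spots and to -0.0826 and -0.15 with litter as a block, none past the threshold. The number of members called went from 4 to 1 in wild-type sections alone for liver against spleen, from 0 to 4 with the litter block for the genotype difference between tissues, from 4 to 0 in knockouts alone for lymphoid-poor spots, from 1 to 0 with DESeq2 and with upper-quartile factors (0) for outer liver spots, and from 3 to 1 with DESeq2 for the interaction of zone and genotype. The P8 five-gene sum moved from 1010.3 to 1631 CPM in late-neutrophil spots, and the median correlation with myeloid regulators to 0.0809 in thinned spots. Leaving out 1 section gave 0 to 2 members in liver genotype, with ranges of -1.62 to 1.34 for Mpo, -3.57 to 4.00 for Elane, -2.13 to 2.45 for Prtn3, -3.54 to 3.18 for Ctsg and -1.45 to 2.09 for Ms4a3. It gave 4 to 5 members in spleen genotype, 2 to 5 in liver against spleen, 1 to 4 in lymphoid-poor spots, 3 to 5 in hepatocyte-gene spots, 0 to 1 in outer liver spots, 2 to 3 in outer spleen spots, 1 to 3 in the interaction and 4 to 5 between litters. For the genotype difference between tissues it gave -2.67 to 0.22 for Mpo, -6.00 to 1.49 for Elane, -3.92 to 0.59 for Prtn3, -4.50 to 2.12 for Ctsg and -2.59 to 0.87 for Ms4a3. The difference of the ratio to late neutrophil genes in liver ranged from -1.17 to 1.5, and the liver minus spleen difference in Moran's I from 0.233 to 0.384. Over all genes, calls in liver genotype numbered 0, with DESeq2 15, with the block 157 and up to 109 without 1 section; in spleen genotype 3886, thinned 2513 and without knockout spleen 2 240; in liver against spleen 8931, without wild-type spleens 1 and 2 5744 and 5899. They numbered 2236 for lymphoid-poor spots, with DESeq2 1477 and without wild-type spleen 2 941, 5883 for hepatocyte-gene spots and without knockout liver 2 3613, and 2397 for outer liver spots and with DESeq2 1475. For outer spleen spots they numbered 1480, without knockout spleens 1 and 2 439 and 876, for the interaction 1099 and with DESeq2 211, and between litters 2560, in all spots 4345. Upper-quartile factors changed the split in spleen genotype from 2603 higher and 1283 lower to 1197 and 4400, with the median of all genes at -0.37 in place of -0.08. The number as a replicate block in spleen, where deviations correlated at 0.0394, gave 4968 calls and 4 members, and the block changed no other call on a member than those given above. Where a cause is not named it was not tested. With 29 to 226 UMIs per member, wild-type spleen 2 and the knockout spleens had the fewest UMIs of the 5 genes apart from the EDTA section.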
